A study of Mus musculus with 1528 samples.

Results

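Mannose and scavenger receptors were measured in single bone marrow–derived macrophages (BMDMs) that had been given IL4+IL13 or IL4+IL13+TNF. The set holds 8 of the 55421 genes in the table. They were listed by name and not by a cut on their values, but with earlier results of these data known. The members are the mannose receptor *Mrc1*, the class A scavenger receptors *Msr1* and *Marco*, and the cysteine-rich scavenger receptor *Cd163*. With them are the secreted protein *Cd5l* of the same domain family as *Cd163*, the lysosomal sialomucin *Cd68*, and the class B members *Scarb1* and *Scarb2*. All 8 were in the table, and 7 of them passed the filter on low values and were tested among 17034 genes, *Marco* being the exception. All cells were wild-type C57BL/6 and were grown with M-CSF from the bone marrow of 2 mice. The control group then received IL4+IL13 for a day and the other group IL4+IL13+TNF, with 10 ng/ml of every cytokine, so that TNF is the only labelled difference. Single live cells were sorted into 384-well plates and sequenced by Smart-seq2, a full-length method. Plates 2 and 3 held mouse 1 and plates 4 and 5 held mouse 2, with IL4+IL13 in rows A to H and TNF in rows I to P of every plate for the wells that were compared.

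Macrophages use these proteins to take up sugars, lipoproteins, dying cells and microbes. The mannose receptor is a C-type lectin that internalises mannosylated glycoproteins, and it is a common marker of macrophages stimulated with IL4 or IL13. Scavenger receptors are grouped by structure rather than ancestry, and they share a broad affinity for modified lipoproteins and other polyanionic ligands. TNF is an inflammatory cytokine, and the comparison asks which of these receptor transcripts differed when it was added to the IL4+IL13 stimulus.

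Of 1524 wells with a mouse and a treatment, 1386 passed the cell filter, 333 to 357 in each set of 1 mouse and 1 treatment. Median depth in these sets was 447264 to 490310 fragments per cell. All 7 macrophage markers were measured, and at least 1 of them was found in 100% of the kept cells. Single markers were not in every cell: *Mertk* was found in 17.9% to 40.5% of the cells of a set and *Fcgr1* in 26.2% to 63.4%. Summed levels were 0.148 to 0.22 CPM, the fragments of a gene per 1000000 fragments of the sum, for B cell, 0.0342 to 0.32 for erythroid, 0.255 to 0.759 for T cell, 0.517 to 1.47 for stromal, 1.03 to 5.49 for neutrophil and 2.52 to 10.3 for mast cell and basophil markers. At least 1 marker was still found in 1.4% to 3.3% of the cells of a set for erythroid and 3.5% to 4.6% for B cell lists. This share was 4.3% to 24.4% for T cell and 4.5% to 39.5% for neutrophil lists. For mast cell and basophil it was 9.01% to 14.3%, for stromal 12.9% to 23.05% and for dendritic cell lists 94.4% to 96.4%. The liver and tissue-resident macrophage markers *Clec4f*, *Timd4* and *Vsig4*, which accompany *Cd5l* and *Cd163* in tissues, summed to 0.022 to 1.04 CPM. The macrophage list and others moved with TNF. Macrophage markers summed to 13770 and 15330 CPM without TNF and 27230 and 26110 with it, most of it *Lyz2*. Within that list *Fcgr1* went the other way, at 68.6 and 66.6 CPM without and 20.05 and 20.62 with TNF. *Mertk* was also lower, at 13.9 and 32.5 against 6.43 and 13.5 CPM. Cycling markers summed to 1266 and 822 CPM without TNF and 686 and 426 with it, and class II antigen-presenting genes to 830 and 1560 CPM without and 2314 and 3824 with it. Dendritic cell markers summed to 7.67 and 10.3 CPM without and 31.1 and 208.7 with TNF, of which *Ccr7* made up 21.4 and 194.7 CPM. The part of these lists in the results below was not tested.

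The promoters of 6 of the 8 genes were in the RefSeq table (GRCm38.p6), as windows of 300 bases that run from 250 before the transcription start to 50 after it. The 4 below belong to the 3 genes with the lowest log2 fold changes with TNF among those that have a window and to *Cd68*, whose level moved least. Capitals mark matches to the motifs that were searched on both strands: TGANTCA of AP-1, the Jun and Fos factors that TNF is known to activate, and the core AGGAAGT of PU.1, the master regulator of macrophages.
Mrc1, chr2:14229164-14229463, plus strand: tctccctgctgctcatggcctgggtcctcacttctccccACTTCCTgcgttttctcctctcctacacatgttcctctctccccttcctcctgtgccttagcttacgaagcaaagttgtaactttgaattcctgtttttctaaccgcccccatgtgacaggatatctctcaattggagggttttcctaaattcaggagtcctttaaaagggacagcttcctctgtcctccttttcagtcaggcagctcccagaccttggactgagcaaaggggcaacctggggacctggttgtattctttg
Cd163, chr6:124304401-124304700, plus strand: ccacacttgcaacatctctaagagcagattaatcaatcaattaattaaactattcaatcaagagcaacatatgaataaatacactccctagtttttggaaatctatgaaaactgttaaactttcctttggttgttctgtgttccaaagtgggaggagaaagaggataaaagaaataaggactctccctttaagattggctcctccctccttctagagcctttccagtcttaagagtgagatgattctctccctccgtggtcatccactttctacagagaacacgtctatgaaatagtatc
Cd5l, chr3:87357631-87357930, plus strand: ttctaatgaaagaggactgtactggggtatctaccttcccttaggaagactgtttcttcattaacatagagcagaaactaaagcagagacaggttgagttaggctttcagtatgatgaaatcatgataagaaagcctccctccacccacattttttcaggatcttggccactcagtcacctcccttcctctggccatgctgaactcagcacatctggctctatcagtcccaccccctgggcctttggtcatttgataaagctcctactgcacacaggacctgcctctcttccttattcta
Cd68, chr11:69666121-69666420, minus strand: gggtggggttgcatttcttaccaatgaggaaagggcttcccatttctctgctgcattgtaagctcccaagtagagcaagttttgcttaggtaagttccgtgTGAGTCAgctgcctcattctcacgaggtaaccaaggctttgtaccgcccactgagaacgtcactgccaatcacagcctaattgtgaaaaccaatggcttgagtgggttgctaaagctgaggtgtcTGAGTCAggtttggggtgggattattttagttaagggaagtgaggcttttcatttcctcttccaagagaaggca
The *Mrc1* window held the PU.1 core on its minus strand, starting 211 bases before the start. *Cd68* held the AP-1 motif at 149 and 24 bases before its start. The *Cd5l*, *Cd163*, *Marco* and *Scarb2* windows held neither. Among 32851 such windows of the genome, 9.35% held the PU.1 core and 7.81% the AP-1 motif, so that each match is one that many other promoters share. The matches are descriptions of the letters and say nothing about binding.

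With IL4+IL13 alone, the 8 transcripts spanned a wide range of levels. Per kilobase of exon, *Cd68* was highest at 1124 ± 1.46 FPKM (fragments per kilobase, CPM divided by exon length in kilobases; SD, n = 2 mice), followed by *Mrc1* at 189.7 ± 0.112. *Scarb2* at 18.7 ± 0.869, *Msr1* at 15.4 ± 5.24, *Scarb1* at 12.4 ± 0.753 and *Cd5l* at 11.4 ± 1.37 came next. Within that middle group the order of *Scarb2* against *Msr1*, of *Msr1* against *Scarb1* and of *Scarb1* against *Cd5l* lay within the spread between mice. *Cd163* stood lower at 3.70 ± 0.241 FPKM, and *Marco* was close to the limit of detection at 0.00715 FPKM. With TNF, *Msr1* at 39.1 ± 10.7 FPKM came next after *Cd68* at 983 ± 33.9 and *Mrc1* at 103 ± 22.2, and *Cd5l* at 1.05 ± 1.27 lay within the spread of *Cd163* at 1.17 ± 0.0799.

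**Figure D1:**
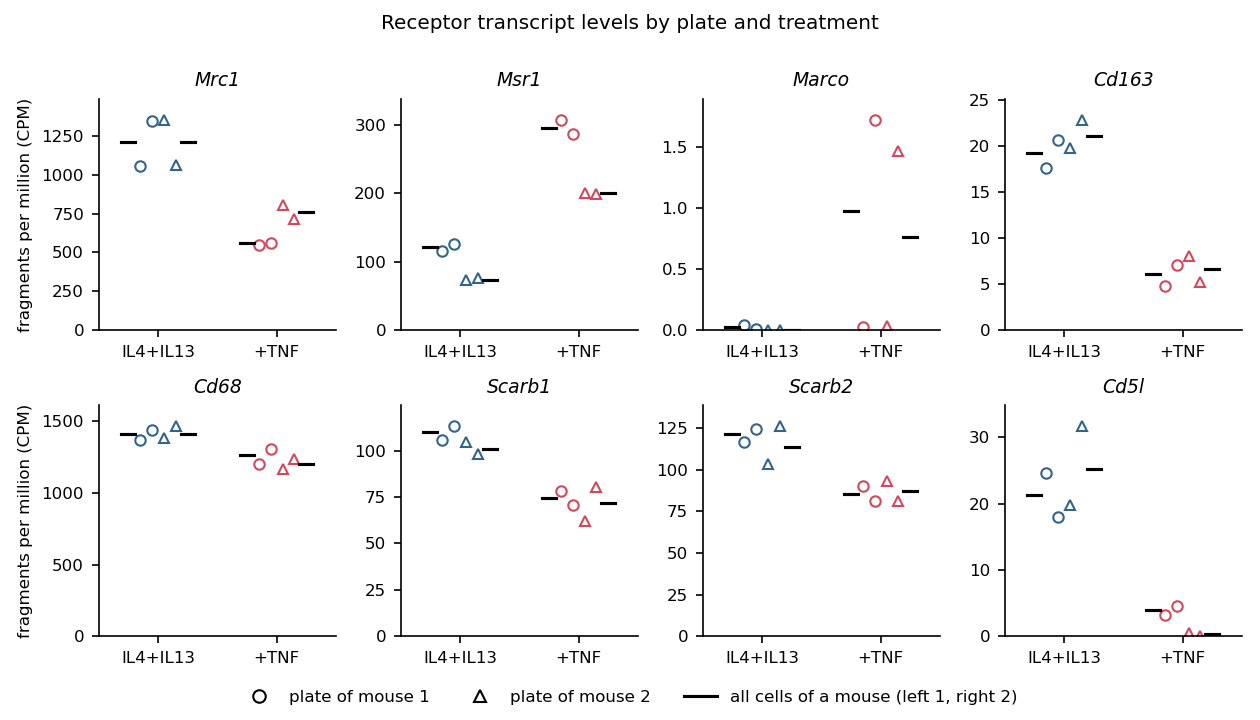
Transcript level in CPM (vertical axis, from 0, a separate scale for each gene) for the 8 genes with IL4+IL13 (blue) and IL4+IL13+TNF (red). Circles are the plates of mouse 1, triangles those of mouse 2, and black lines the sum over all cells of a mouse. *Mrc1*, *Cd163*, *Cd68*, *Scarb1*, *Scarb2* and *Cd5l* were lower with TNF on 4 of 4 plates, *Msr1* was higher on 4 of 4, and the *Marco* points rest on very few cells.

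The comparison of treatments used the fragments summed over the cells of each mouse and treatment, so that a mouse and not a cell was the replicate. With treatment as the only term in edgeR's quasi-likelihood test, no member passed an adjusted p of 0.05. That fit called 0.00587% of the 17034 genes higher with TNF and 0% lower, while 6 of the 7 tested members had an unadjusted p below 0.05 against 8.1% of all genes. Cells of the 2 treatments came from the same animals and plates. With the mouse as a block, 3 of 7 members passed: *Mrc1* and *Cd163* fell and *Msr1* rose. In simulated counts the blocked fit also called 40 unchanged genes, more than its threshold allows, so its adjusted p values here and below may be too small. In the wells of rows G to J alone, with fewer cells, the adjusted p was 0.174 for *Mrc1*, 0.573 for *Cd163* and 0.210 for *Msr1*. The fit of all rows called 1.94% of all genes higher and 1.88% lower. DESeq2 with treatment only called these 3 and *Cd5l*, and it called 1.79% of all genes higher and 1.72% lower. The median log2 fold change of the 7 tested members was -0.53, and that of all tested genes was 0.00380. Scaling by the spike-in fragments moved the median of all genes to 0.153, a shift of 0.149, and kept the direction of all 7, with *Cd68* closest to 0 at -0.04. In 6 of 7 members both mice with TNF lay below both mice without, as did 17.9% of all genes, and *Msr1* lay above, as did 18.6%. The 6 lower members were lower on 4 of 4 plates, against 16.8% of all genes, and *Msr1* was higher on 4 of 4, against 18.7%. Plate values that do not overlap between treatments are also named below. The share of all genes that meet that stricter rule was not counted.

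*Mrc1*, the mannose receptor (ENSMUSG00000026712, chr2:14229392-14332057, plus strand, mm10), was found in nearly every cell at a level that was lower with TNF. In cells given IL4+IL13 its level was 1208 CPM for mouse 1 and 1209 CPM for mouse 2, and with TNF it was 558 and 758 CPM. All 4 plates agreed in direction, from 1054 to 1353 CPM without TNF and from 549 to 802 CPM with it, and the groups did not overlap. The fold ratio of TNF over control was 0.538 in the blocked fit (log2 fold change -0.89 ± 0.13 SE, adjusted p = 0.0289, edgeR) and 0.544 without the block (-0.88 ± 0.19, adjusted p = 0.329). The fall was larger in mouse 1 (log2 -1.11) than in mouse 2 (-0.67), a difference between single animals that was not tested. Each mouse had its own plates, so animal and plate cannot be told apart in this or any other difference between mice. At an equal depth of 339000 fragments per cell, the transcript was found in 99.1% and 99.7% of cells without TNF. With TNF it was found in 97.4% and 97.7%, a difference of -1.85 ± 0.161 percentage points (SD, n = 2 mice). The exact permutation test gave a two-sided p of 0.333. That is the smallest value it can give for 2 against 2 shares, and it left the pairing by mouse unused.

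In single cells the *Mrc1* values spread over the whole range in both treatments. The median cell held 955 and 1154 CPM without TNF and 422 and 578 CPM with it. Of the TNF cells, 83.0% in mouse 1 and 77.1% in mouse 2 lay below the median of the same animal's control cells, and 21.9% and 31.2% lay below the control's 10th percentile, whereas 0.865% and 2.58% lay above its 90th. The 10th percentile was 167 and 200.2 CPM without TNF and 34.4 and 10.8 CPM with it. The coefficient of variation between cells was 0.829 and 0.760 without and 0.920 and 0.979 with TNF.

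**Figure D2:**
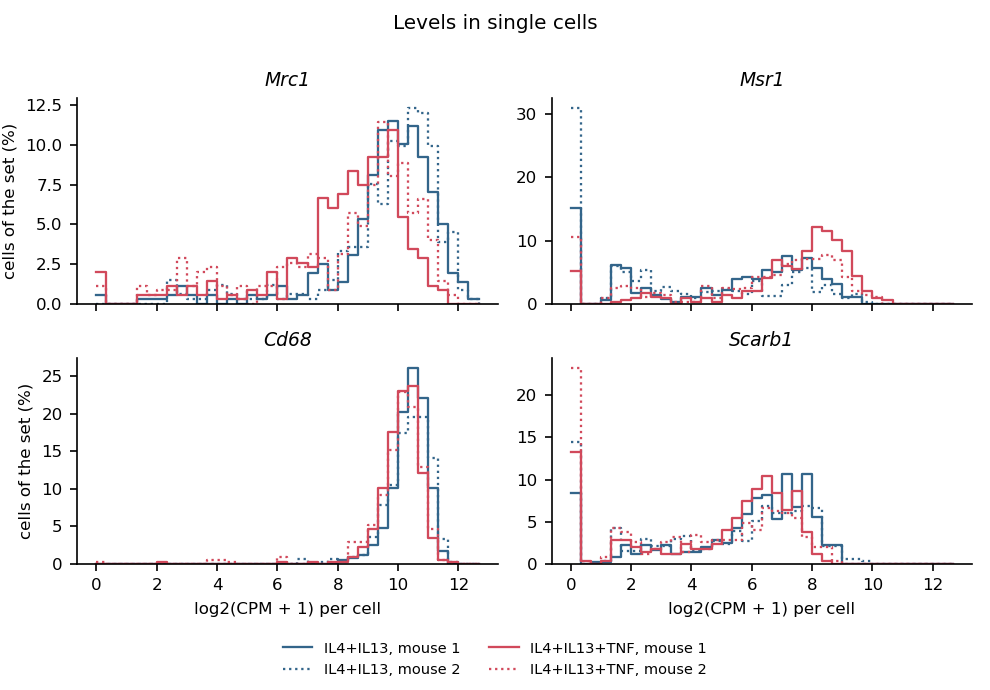
Share of the cells of a set (vertical axis, %) by level per cell, log2(CPM + 1) (horizontal axis), for *Mrc1*, *Msr1*, *Cd68* and *Scarb1*. Blue is IL4+IL13, red is IL4+IL13+TNF, solid lines are mouse 1 and dotted lines mouse 2. The *Mrc1* curves moved to lower values with a longer lower tail, the *Msr1* curves moved up and their bar at 0 was lower (15.1% and 30.9% of cells without TNF, 5.19% and 10.6% with it), and the *Cd68* curves stayed narrow.

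*Msr1*, the class A receptor for modified low-density lipoprotein (ENSMUSG00000025044, chr8:39581685-39642673, minus strand), was the only tested member that was higher with TNF. Without TNF its level was 120.9 CPM in mouse 1 and 73.9 CPM in mouse 2, and with TNF these became 296 and 199.7 CPM. The lowest plate with TNF (198 CPM) lay above the highest without it (125.6 CPM). The fold ratio was 2.57 in the blocked fit (log2 1.36 ± 0.11 SE, adjusted p = 0.00865, edgeR) and 2.54 without the block (1.35 ± 0.33, adjusted p = 0.368). The mice differed in level under both treatments, mouse 1 being the higher, while the log2 fold changes of 1.29 and 1.43 in mouse 1 and mouse 2 were close. More cells held the transcript with TNF: at equal depth 80.4% (95% exact interval 75.7 to 84.6) and 61.8% (56.1 to 67.3) of cells without it, and 95.05% (91.97 to 97.2) and 87.9% (83.7 to 91.3) with it, a difference of 20.4 ± 8.11 points (exact permutation p = 0.333). The median cell went from 61.1 to 254.5 CPM in mouse 1 and from 4.79 to 135 CPM in mouse 2, and 39.5% and 32.4% of TNF cells exceeded the 90th percentile of their animal's control cells.

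*Marco*, the other class A receptor of the set and a binder of bacteria (ENSMUSG00000026390, chr1:120474538-120505024, minus strand), was almost silent. The cells without TNF held 5 fragments in mouse 1 and 0 in mouse 2, equal to 0.0275 and 0 CPM. With TNF the sums were 152 and 134 fragments (0.978 and 0.764 CPM), of which 119 and 125 came from 1 cell in each mouse and 29 from a further cell of mouse 1. The cell of mouse 2 was also the deepest of its set, with 3578643 fragments. At equal depth the transcript was found in 3 of 332 and 0 of 309 cells without TNF (0 of 309 allows a share of up to 0.971% as 3 counts of the total, and the 95% exact upper bound is 1.19%) and in 3 of 303 and 4 of 306 cells with it. Genes of T, B and red cells, which these cells should not use, were found in a median of 0.466% of cells at the same depth (range 0% to 18.5% over 9 genes, *Trac* being the highest and the other 8 genes reaching at most 3.01%). The *Marco* shares of 0% to 1.31% overlap that range, while the cells with 119 and 29 fragments hold more than single stray fragments. No fold change is given, and a difference in the share of cells between treatments was not detectable at this depth.

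*Cd163*, the receptor for haemoglobin bound to haptoglobin (ENSMUSG00000008845, chr6:124304656-124330527, plus strand), fell in the blocked fit of all rows, by the largest amount among the members that passed there. In the rows at the border of the treatments, G to J, that fit gave a smaller difference that did not pass (log2 -0.65, adjusted p = 0.573, edgeR). Its level was 19.2 and 21.1 CPM with IL4+IL13 and 6.06 and 6.67 CPM with TNF. The highest plate with TNF (8.10 CPM) lay below the lowest without (17.6 CPM). The fold ratio was 0.315 in both fits, with a log2 fold change of -1.66 ± 0.19 SE and an adjusted p of 0.0184 in the blocked fit and an SE of 0.23 and an adjusted p of 0.197 without the block (edgeR). The mice were alike, with a log2 fold change of -1.59 in each. The transcript was found in 39.8% (34.5 to 45.3) and 34.3% (29.0 to 39.9) of cells without TNF and in 18.8% (14.6 to 23.7) and 18.3% (14.1 to 23.1) with it, a difference of -18.5 ± 3.50 points. A minority of cells carried the signal: the 5% of cells with the highest values held 39.1% and 51.8% of the *Cd163* level without TNF and 64.5% and 75.1% with it.

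*Cd5l*, a secreted scavenger receptor cysteine-rich protein of macrophages that supports their survival (ENSMUSG00000015854, chr3:87357881-87371073, plus strand), had the largest estimated difference and the least certain one. Its level was 21.3 and 25.3 CPM with IL4+IL13 and 3.97 and 0.319 CPM with TNF. On the plates it ranged from 17.9 to 31.7 CPM without TNF, from 3.20 to 4.56 CPM with TNF in mouse 1, and from 0.0562 to 0.590 CPM with TNF in mouse 2, so the groups did not overlap but the mice with TNF differed widely. The log2 fold change was -4.20 ± 1.00 SE with the block (adjusted p = 0.0933, edgeR) and -3.44 ± 1.14 without (adjusted p = 0.521), so neither fit called it. Leaving out the TNF sum of mouse 1 gave -6.19 with an adjusted p of 0.0150, and leaving out that of mouse 2 gave -2.55 with an adjusted p of 0.194. The transcript was found in 19.6% and 18.8% of cells without TNF and in 7.59% (4.87 to 11.2) and 2.61% (1.14 to 5.09) with it, a difference of -14.1 ± 2.95 points. In the TNF cells of mouse 2 it rested on 56 fragments, 40 of them in 1 cell. The 5% of cells with the highest values held 70.6% and 79.9% of its level without TNF.

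*Cd163* and *Cd5l* are both read as marks of mature tissue macrophages, and each was found in a minority of cells here. At equal depth 5.12% and 6.80% of cells without TNF held both transcripts, and 0.99% and 0% of cells with TNF did. Their rank correlation across cells averaged -0.06 over the 4 sets (range -0.16 to 0.03), a weak value that is no relation in sparse counts.

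*Cd68*, a heavily glycosylated membrane protein of late endosomes and lysosomes (ENSMUSG00000018774, chr11:69664213-69666153, minus strand), was the most even member. Its level was 1411 and 1414 CPM with IL4+IL13 and 1265 and 1205 CPM with TNF. The plates with TNF (1166 to 1310 CPM) lay below those without (1372 to 1466 CPM), so that a small difference was seen on every plate. The fold ratio was 0.874 (log2 -0.19 ± 0.08 SE, adjusted p = 0.228 with the block; ± 0.13, adjusted p = 0.808 without; edgeR), which did not pass the test. The transcript was in 100% of cells without TNF and in 99.7% of cells of each mouse with it. Between cells its coefficient of variation was 0.348 to 0.432 over the 4 sets, against 0.760 to 0.979 for *Mrc1*, and the top 5% of cells held 8.90% to 9.72% of its level.

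*Scarb1*, the class B receptor for high-density lipoprotein (ENSMUSG00000037936, chr5:125277087-125341094, minus strand), was lower on every plate without passing the test. Its level was 110 and 101 CPM with IL4+IL13 and 74.3 and 71.7 CPM with TNF. The plates without TNF (98.1 to 113 CPM) did not overlap those with it (62.3 to 80.7 CPM). The log2 fold change was -0.53 ± 0.11 SE with the block (adjusted p = 0.0696) and ± 0.17 without (adjusted p = 0.505, edgeR). The transcript was found in 90.4% and 83.5% of cells without TNF and in 83.2% and 72.9% with it, a difference of -8.91 ± 2.42 points. *Scarb2*, also known as LIMP-2, carries the enzyme glucocerebrosidase to lysosomes (ENSMUSG00000029426, chr5:92441314-92506833, minus strand). Its level was 121 and 113 CPM with IL4+IL13 and 85.5 and 87.2 CPM with TNF. The log2 fold change was -0.44 ± 0.11 SE with the block (adjusted p = 0.101) and ± 0.16 without (adjusted p = 0.581, edgeR), which did not pass. The share of cells with *Scarb2* differed by -8.43 points in mouse 1 and by only -0.146 points in mouse 2, so that a lower level did not go with fewer positive cells in the second animal.

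**Figure D3:**
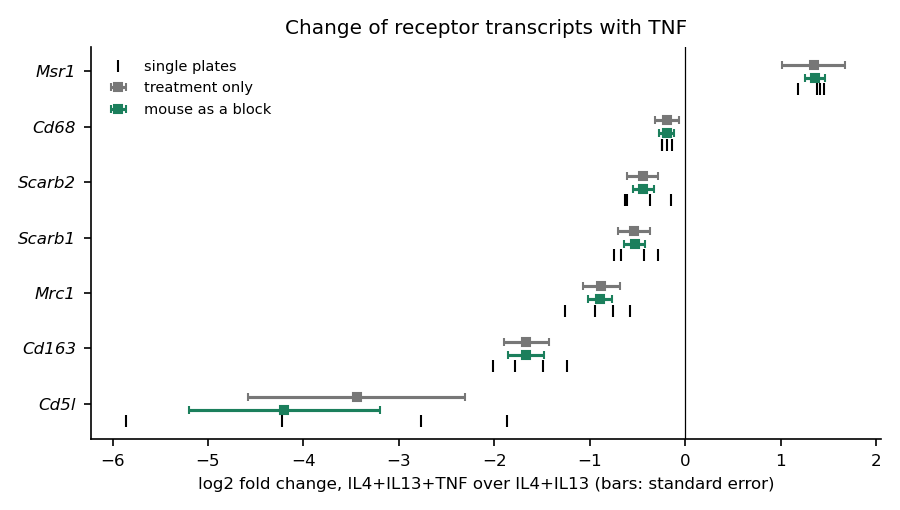
Log2 fold change of IL4+IL13+TNF over IL4+IL13 (horizontal axis) for the 7 tested members. Grey squares are the fit with treatment only, green squares the fit with the mouse as a block, bars the standard error, and black ticks the 4 single plates. Both fits gave nearly the same estimates except for *Cd5l* (-3.44 and -4.20), the blocked bars are shorter, and only *Msr1* lies above 0.

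The number of members found per cell had the same median in all sets, but fewer cells with TNF held 6. The median cell held 5 of the 8 transcripts under both treatments and in both mice, and the mean was 5.21 and 4.83 without TNF and 4.85 and 4.65 with it. Cells with 6 of the 8 made up 34.9% and 22.01% of cells without TNF and 19.1% and 13.7% with it.

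**Figure D4:**
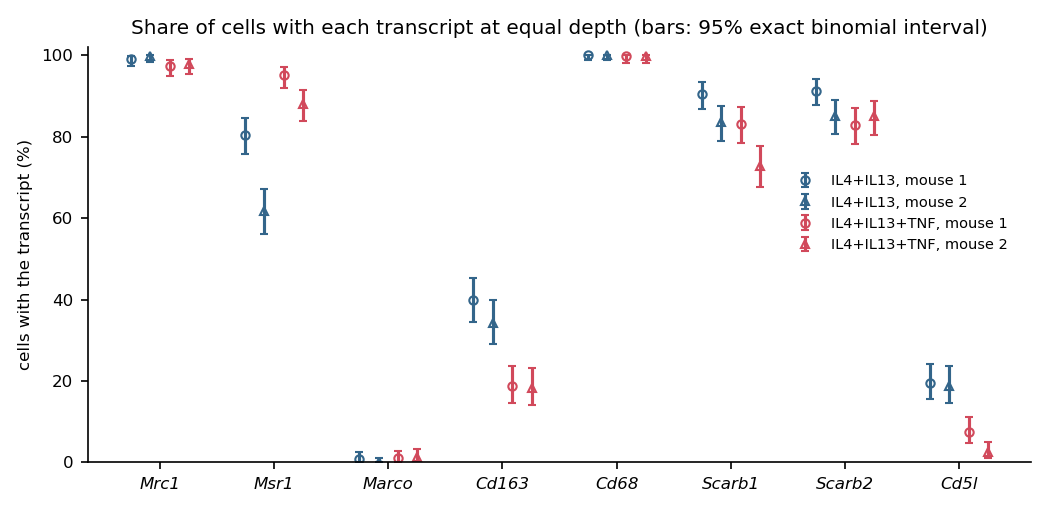
Share of cells in which each transcript was found at 339000 fragments per cell (vertical axis, %) for the 8 genes. Blue is IL4+IL13, red is IL4+IL13+TNF, circles are mouse 1, triangles mouse 2, and bars the 95% exact binomial interval, which covers counting error only. *Msr1* was found in more cells with TNF in both mice, *Cd163* and *Cd5l* in fewer, and *Cd68* and *Mrc1* stayed near 100%.

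On each plate the treatments lay in separate rows, so that position and treatment cannot be told apart in the plate as a whole. In the rows next to the border between them, G to J, the levels of *Mrc1* were 1359 and 1333 CPM without TNF and 548 and 742.5 CPM with it, and those of *Msr1* were 154 and 79.8 against 262.5 and 161 CPM. *Cd163* differed less there, at 11.8 and 19.7 against 8.65 and 10.5 CPM against 17.7 and 15.8 CPM in rows A and B and 24.2 to 26.6 CPM in rows C to F. No member passed in the blocked fit of these rows, a fit with 89, 86, 93 and 89 cells that called 1 gene in all. Within a treatment, the rank correlation of *Cd163* with the row, counted from A to P, took both signs over the 4 plates, from -0.08 to 0.03 without TNF and from -0.16 to 0.09 with it. With TNF, *Mrc1* correlated with the row at 0.00894, -0.17, -0.09 and -0.20 on plates 2 to 5 and *Msr1* at 0.12, 0.09, 0.17 and 0.01, so that on 3 of 4 and 4 of 4 plates the sign was that of their difference between treatments. Without TNF these ranges were -0.01 to 0.10 for *Mrc1* and -0.01 to 0.16 for *Msr1*. For *Cd5l*, *Cd68*, *Scarb1* and *Scarb2* the single plates lay between -0.09 and 0.21. The part of plate position in the results was not tested.

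**Figure D5:**
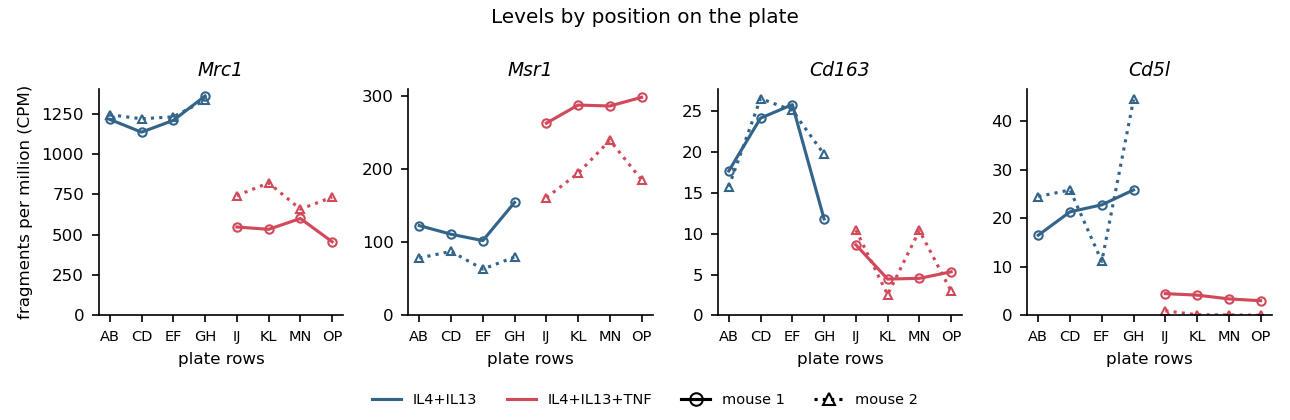
Level in CPM (vertical axis, from 0, a separate scale for each gene) by pairs of plate rows (horizontal axis) for *Mrc1*, *Msr1*, *Cd163* and *Cd5l*, summed over the 2 plates of a mouse. Blue is IL4+IL13 (rows A to H), red is IL4+IL13+TNF (rows I to P), circles and solid lines are mouse 1, triangles and dotted lines mouse 2. *Mrc1* and *Msr1* step at the border between the treatments, while *Cd163* is already lower in rows G and H of mouse 1 (11.8 CPM).

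Across cells of the same mouse and treatment the members were nearly unrelated to each other. The highest mean rank correlation over the 4 sets was 0.126, between *Mrc1* and *Cd68* (range 0.09 to 0.20), and the lowest was -0.08, between *Cd68* and *Cd5l*. The 3 genes closest to *Mrc1* among 10107 genes were *C1qc*, a complement component, with a mean correlation of 0.52 (range 0.46 to 0.66), *Gas6*, a bridging ligand of receptors that take up dying cells, with 0.47, and the ribonuclease *Rnase4* with 0.45. The 3 closest to *Cd68* were *Gpnmb*, a membrane glycoprotein of macrophages, with 0.43 (0.42 to 0.45), the lysosomal protease *Ctsd* with 0.39 and the tetraspanin *Cd63*, also of late endosomes, with 0.38. For *Msr1* the closest were *Clec4d* with 0.23, *Sod2* with 0.19 and *Lyz2* with 0.19. The values of *Cd163* (*Alox5ap*, *Ctsc* and *Gpr146*), *Scarb1* (*Selenop*, *Ehd4* and *Wfdc17*) and *Scarb2* (*Galk2*, *Mnat1* and *Tmem132a*) were at most 0.16 and too weak to read. These correlations describe single cells that share a library preparation and carry no test. Against summed lists, *Mrc1* correlated with the C1q genes at 0.47 and with the antigen-presenting genes at -0.23, and *Cd68* with the lysosomal genes at 0.40, with the antigen-presenting genes at -0.27 and with the cycling genes at -0.21. Over the 4 sets the C1q genes summed to 2118 to 2421 CPM and the interferon genes to 223.5 to 351 CPM. Most of the C1q sum was *C1qb*, at 1843 and 1622 CPM without TNF and 1625 and 1740 with it. The other C1q genes differed in direction. *C1qa* stood at 101 and 49.6 CPM without and 223 and 208 with TNF, whereas *C1qc* was lower with TNF in both mice.

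Of the genes closest to *Mrc1*, *Gas6* stood at 546.5 and 381 CPM without TNF and 113 and 133 CPM with it, and *Rnase4* at 610 and 724 against 105 and 253.5 CPM. *C1qc*, the nearest of all, stood at 433 and 517 against 269 and 473 CPM.

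Other uptake receptors were examined as a list of 28 genes, of which 15 were tested. In the blocked fit 2 of the 15 rose and none fell, against 1.94% and 1.88% of all genes, and 6 had an unadjusted p below 0.05, against 21.4% of all genes. In the fit without the block none passed and 4 had an unadjusted p below 0.05, against 8.1% of all genes (edgeR). DESeq2 called 2 higher and 1 lower, against 1.79% and 1.72% of all genes. *Cxcl16*, which is both a chemokine and a scavenger receptor for oxidised lipoprotein, went from 69.4 and 137.9 CPM to 262.8 and 358 CPM (log2 1.65 ± 0.16 SE with the block, adjusted p = 0.0135; without it adjusted p = 0.362). *Ly75*, the endocytic receptor DEC-205 of the mannose receptor family, went from 0.726 and 0.700 CPM to 5.83 and 8.99 CPM (log2 3.34 ± 0.32 SE, adjusted p = 0.0137, without the block adjusted p = 0.155, edgeR). It rested on a minority of cells, found at equal depth in 3.9% and 2.3% without TNF and 11.2% and 13.1% with it. Other genes of the list with high levels were *Cd36*, a class B receptor for oxidised lipids and a relative of *Scarb1*, at 988.6 and 470 CPM without and 1166 and 584 with TNF, *Lgals3bp* at 559 and 481 against 582 and 568, and *Stab1* at 109.8 and 111.7 against 53.3 and 76.1 CPM. *Stab1*, a class H scavenger receptor, was lower on 4 of 4 plates with a log2 fold change of -0.80 ± 0.15 SE (adjusted p = 0.0611 with the block), which did not pass. The median log2 fold change of the list was 0.09.

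Partners and regulators of the members formed a list of 17 genes, of which 16 were tested. In the blocked fit 4 rose, none fell and 11 had an unadjusted p below 0.05, where all genes gave 1.94%, 1.88% and 21.4%. In the fit without the block none passed and 7 had an unadjusted p below 0.05, where all genes gave 8.1% (edgeR). Those of the haemoglobin route of *Cd163* were *Hp* and *Blvrb*. *Hp*, the haptoglobin gene, stood at 0 and 0.0830 CPM without TNF and 0.605 and 5.34 CPM with it (adjusted p = 0.0146, edgeR). It was close to the limit of detection, found at equal depth in 0% and 3.24% of cells without TNF and 0.99% and 9.15% with it. *Blvrb*, biliverdin reductase B, stood at 229 and 217 against 368 and 376 CPM (log2 0.74 ± 0.10 SE, adjusted p = 0.0251, edgeR). *Hmox1*, haem oxygenase, was higher on 4 of 4 plates, at 291.5 and 182 against 403.5 and 321 CPM, but did not pass (adjusted p = 0.0578). *Nr1h3*, the oxysterol receptor LXR alpha, whose known targets include cholesterol exporters and *Cd5l*, went from 14.1 and 11.3 CPM to 39.6 and 29.0 CPM (log2 1.43 ± 0.15 SE, adjusted p = 0.0159). *Adam17*, the protease that sheds CD163 from the cell surface, went from 131.5 and 222 CPM to 404.5 and 421 CPM (log2 1.27 ± 0.18 SE, adjusted p = 0.0302). Among the highest per kilobase were *Lamp1* and *Lamp2*, lysosomal membrane proteins, with *Hmox1* and *Blvrb*. *Lamp1* stood at 2018 and 2149 CPM without and 1514 and 1680 with TNF (log2 -0.39 ± 0.07 SE, adjusted p = 0.0559) and *Lamp2* at 926 and 982 against 761 and 861 CPM (adjusted p = 0.187). Neither passed with the block. The median log2 fold change of the list was -0.07.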

How the data were processed

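The deposited values are raw counts, 1 whole number of fragments for each gene in each well: bcl2fastq 2.19.1 is named for demultiplexing by the submitters' processing notes, and the authors ran gsnap against mm10 and featureCounts 1.6.3 with Ensembl 98 genes, ignoring the strand. The submitters also name Seurat 3, which was not used here. Smart-seq2 has no molecular identifiers, so the counts are of fragments and not of molecules. The intervals on shares of cells cover counting error only and leave out the spread between mice. The table's 92 spike-in rows stayed out of totals and tests, as did 8 columns whose names fit no label. For 4 of 1528 samples the labels give no mouse, and they stayed in no group.

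On each plate, 138 wells in all were removed for a log fragment total or log gene number more than 3 median absolute deviations under the plate's median, or for a mitochondrial or spike-in share as far over it. Wells held singly sorted cells and no doublet caller was run. Gene symbols were matched to 55154 of 55421 identifiers. Fragments were summed per mouse and treatment and fitted with edgeR 4.0.16 (limma 3.58.1, DESeq2 1.42.0, R 4.3.3) with TMM scaling and Benjamini-Hochberg adjustment over 17034 genes, those that filterByExpr passed and that at least 5% of the cells of 1 treatment held. CPM of the sums use TMM-scaled totals, and CPM of single cells and of plate rows use plain totals. FPKM divides CPM by the exon length of the table. Fold changes by mouse and plate use CPM with 0.5 added. The mouse as a block was the paired fit: the labels and plates give both treatments to the same animal, and deviations of samples with the same mouse number correlated with r = 0.562 over 17034 genes. Counts were simulated with 100 genes changed by a log2 of 1 and 100 by a log2 of 2, up or down. The fit without the block recovered 0% and 47% of them. The fit with the block recovered 88% and 99%. The blocked fit also called 40 unchanged genes, more than its threshold allows. The simulated mouse effect was equal in both treatments, and the spread was estimated with the block. Pairing was thus built in, so the simulation cannot show that the block suits these data. Shares of cells and rank correlations used cells thinned to 339000 fragments, the 10th percentile. This retained 1250 cells, and 25, 24, 44 and 43 were too shallow (in the order IL4+IL13 mouse 1 and 2, TNF mouse 1 and 2). Shares carry 95% exact Clopper-Pearson intervals. An exact permutation test over mice, which ignored the pairing of treatments within a mouse, was run for the 8 shares, whose adjusted p was also 0.333. Python 3.11.15, numpy 2.4.6, pandas 2.3.3, scipy 1.17.1 and matplotlib 3.10.9 were used.

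The members, the lists of other receptors, partners and markers and the tests were chosen with earlier results of these data known. Named from the lists were genes past the threshold in either edgeR fit, the 5 highest per kilobase in IL4+IL13, and for each member found in at least 25% of cells the 3 genes of highest mean rank correlation; some genes that this rule names are not reported here. Marker genes and *Gas6*, *Rnase4* and *C1qc* levels are given as values. The motifs and the rows of the plate were chosen after the data were seen.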

Additional observations from a re-analysis of the deposited data

Results flagged for a closer look

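In 3 wells the labels name IL4+IL13 but no mouse, and they entered no group. Their names place them at row P, column 3, among the rows that held TNF. They held 279461, 354874 and 87198 fragments and 10802, 11121 and 8314 detected genes on plates 3, 4 and 5. Kept control cells of mouse 1 and mouse 2 had medians of 7874 and 7431 genes at 479576 and 477262 fragments. Spike-in shares were 0%, 0.0101% and 0.00229% in the 3 wells, against control medians of 0.0444% and 0.0675%. Thus the 3 wells did not look like typical single cells, and what they held was not tested. They are given because some of their values exceed those of both control sums, although single wells vary more than sums over a mouse. *Mrc1* stood at 1206, 1629 and 745 CPM, the well of plate 4 lying above the 1208 and 1209 CPM of the control sums but below the 75th percentile of single control cells, 1642 and 1799 CPM. *Msr1* stood at 178.9 and 256.4 CPM on plates 3 and 4, above the highest control sum of 120.9 CPM, and at 115 CPM on plate 5. The 90th percentile of *Msr1* in single control cells was 308 and 247 CPM in mouse 1 and mouse 2. *Cd163*, *Cd5l* and *Marco* were at 0 in these 3 wells. No plate value of a member stood apart from the other plates of its treatment by Dixon's test on 4 values, and no member moved in opposite directions in the 2 mice.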

How the results depend on the processing

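All 7 tested members kept their direction under every alternative. Genes past the threshold numbered 1 and members 0 with treatment only. Genes numbered 651 with the replicate block, 598 with DESeq2, 12 with spike-in scaling and 2 with cells thinned to equal depth, and members 3 with the block and 4 with DESeq2. Leaving out each of the 4 sums gave 4 to 30 genes and 0 to 1 members, the 1 being *Cd5l* without the TNF sum of mouse 1. Where 1 sum was left in a treatment, its spread was taken from the other treatment. Alternatives chosen after seeing the data gave, with the replicate block, 1265 genes and 4 members (*Cd5l* added) with spike-in scaling, 716 and 3 with library size, 970 and 4 (*Scarb1* added) with thinned cells, 450 and 3 with no cell filter, and 1 and 0 in rows G to J. The split of higher against lower genes was 331 against 320 with the block, 868 against 397 with spike-in scaling and 273 against 443 with library size. The cause was not tested. Shares lower in both mice numbered 6 members. They numbered 5 without thinning (*Cd68* at 0 in mouse 1) and 5 with no cell filter (*Scarb2* at 0.511 points in mouse 2). How many of all genes had a lower share in both mice was not counted, so these numbers are no result about the members. The 2 mice per treatment limit the precision of every fold change, and depth limits *Marco* and *Cd5l*, which rest on few cells.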
